A study of Mus musculus with 4 samples.

Results

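Transcripts of single cells were compared between primary kidney cell cultures kept with transforming growth factor beta (TGF-β) for 24 h and for 6 h. The cells carried the marker Gli1 and came from male mice aged 12 weeks. They were plated overnight in regular medium, held for 2 h without serum and then given 1 ng/ml TGF-β for 6, 12 or 24 h. Both groups compared here therefore received TGF-β and lacked serum, and hours of TGF-β cannot be told apart from hours without serum, since untreated cultures of the same age are not among the samples analysed. RNA was captured by Drop-seq, which pairs each cell in a droplet with a bead whose barcode labels the cell's transcripts. The comparison was restricted to deep barcodes, those with 1000 or more counts. These numbered 933 of 1328 barcodes at 24 h and 80 of 658 at 6 h, or 1013 of the 3298 barcodes of the 4 libraries. Of the other 2 libraries, the 12 h one had 865 deep barcodes and is given as values only, to show where in the span a level lay. Each time had 1 library, so the cultures have no replicate check, no test was made, and every difference describes these libraries. How many animals gave the cells of a time point is not stated in the labels.

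Gli1-positive cells are mesenchymal cells that lie around vessels and tubules and are a source of scar-forming myofibroblasts in the injured kidney. TGF-β binds a pair of receptor kinases at the cell surface, which phosphorylate SMAD2 and SMAD3. The SMAD proteins then enter the nucleus and, with partner factors, raise genes of the extracellular matrix, the contractile cytoskeleton and their own inhibitors. A myofibroblast is recognised by the matrix it secretes, such as fibrillar collagen and fibronectin, and by smooth muscle actin in its stress fibres.

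The 6 h side was much thinner than the 24 h side. Its deep barcodes held 577352 counts, 74.1% of that library, against 6017400 counts, 97.6%, at 24 h. The median was 3476.5 counts per barcode at 6 h (1014 to 30713) and 5237 at 24 h (1006 to 28381). The 10 largest barcodes held 40.2% of the 6 h counts and 4.15% of the 24 h counts. One count therefore equalled 1.73 CPM (counts per 1000000 counts) at 6 h and 0.166 CPM at 24 h, and a gene with no count could lie at up to 5.20 or 0.499 CPM. Intervals below are 95% and cover counting error only. The nuclear RNA Malat1, which nearly all cells hold, had no count in 19 of the 80 deep barcodes at 6 h (23.8%), in 4 of 865 at 12 h and in 0 of 933 at 24 h. Of those 19, 15 were among the 30 barcodes with 1000 to under 2000 counts. Some beads were read as several barcodes: 10 deep barcodes at 6 h and 142 at 24 h ended in the letter N and otherwise equalled another barcode of their library with 1 base deleted. Joining these and the barcodes 1 base apart left 70 and 788. No barcode was shared between libraries. Mesenchymal markers summed to 5518 CPM at 6 h and 9815 CPM at 24 h, of which Vim gave 3481 and 3466, with Dcn at 0 counts at 6 h. Gli1 itself was not among the genes of the count table, so it could not be analysed. The marker sums of proximal tubule (3.46 and 2.99 CPM), loop and distal tubule (1.73 and 0.997), epithelium (6.93 and 3.66), endothelium (1.73 and 6.65) and macrophages (8.66 and 2.99, 6 of 10 markers analysed) were near 0 at both times. The 3 lymphocyte markers analysed gave 0 and 0.332 CPM, and the erythroid marker Alas2 0 and 0.166 CPM. Schwann and neural markers summed to 22.5 and 37.6 CPM, mostly Tubb3. Podocyte markers summed to 48.5 and 176 CPM, nearly all of it the actin-binding protein Synpo, with Wt1 at 0 in both. Of 9 pericyte and smooth muscle markers, which summed to 72.7 and 92.2 CPM, Myh11, Cnn1, Des, Notch3, Kcnj8 and Abcc9 had no count at 6 h.

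Most transcripts lay at like levels after 24 h and 6 h. A gene's level is its counts summed over the deep barcodes, in CPM. Genes that reached 100 CPM at 6 h or at 24 h were called where the ratio of CPM plus a pseudocount of 10 reached 2-fold. Of 2192 such genes, 103 were higher at 24 h (4.70%) and 89 lower (4.06%), and 1640 (74.8%) lay within 1.5-fold. The median log2 ratio over the 2192 genes was -0.01. The 6 genes furthest above their 6 h level were the ion channel gene Piezo2, the collagen gene Col3a1, Medag, the chemokine gene Ccl7, the protease gene Prss23 and Nupr1. Those furthest below it were mostly genes of mitosis.

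**Figure D1:**
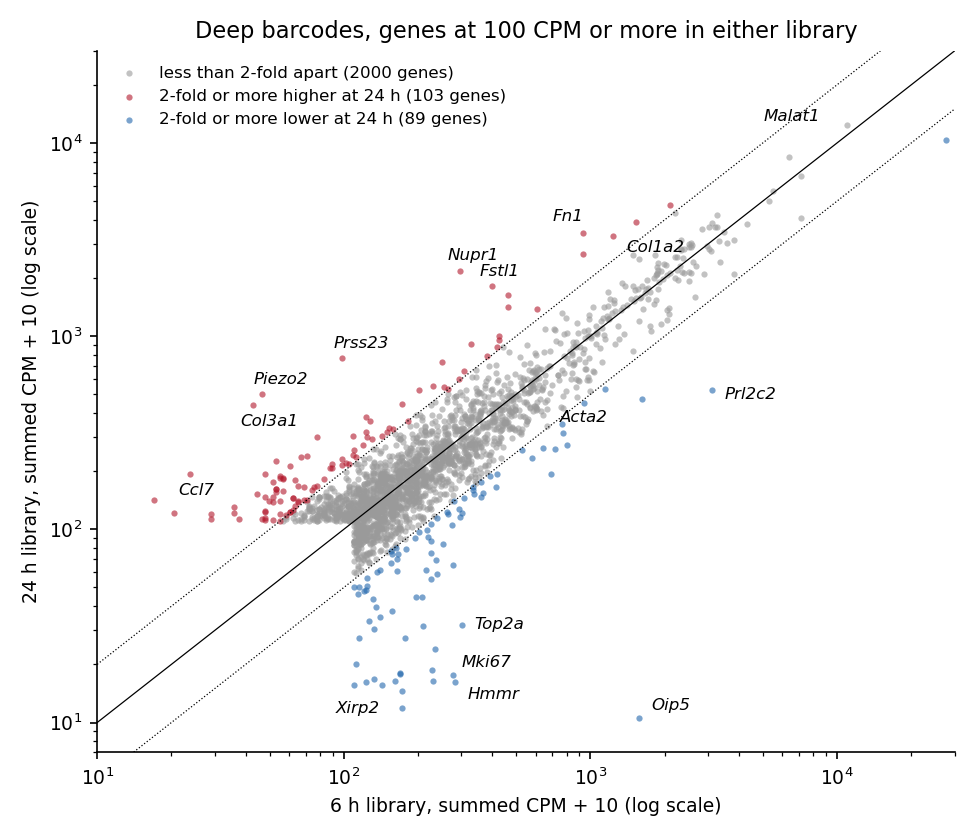
Summed CPM plus 10 of deep barcodes at 6 h (x axis) and 24 h (y axis), both on log scales, for the 2192 genes that reached 100 CPM at 6 h or at 24 h. Each point is a gene, the solid line marks equal levels and the dotted lines 2-fold; 103 genes lie above and 89 below the dotted lines, and Oip5 at the lower right comes almost wholly from 1 barcode.

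The strongest and broadest difference was in genes of cell division, which were lower at 24 h. Of the 53 genes listed for G2 and M phase, 44 were measured, meaning a mean of 20 CPM or more over both libraries. Of these, 40 were at least 1.5-fold lower at 24 h and 0 were higher, with a median log2 ratio of -2.40. Among all 6293 genes measured, 10.4% were lower and 12.2% higher by that limit, with a median of 0.01. The list's members summed to 6313 CPM at 6 h, 2578 at 12 h and 1544 at 24 h. Only Bub3, Tubb4b, Arl6ip1 and Pttg1 lay inside the limit. Pttg1, which encodes securin, was the only member with a higher value at 24 h (116 CPM at 6 h and 169 at 24 h).

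Many genes of late cell cycle are switched by a short promoter element, the CHR, which the DREAM complex binds in resting cells and which often works with CCAAT boxes. The promoters of the 4 G2 and M phase genes that hold the element and lay furthest apart are shown, to let the difference be read beside the sequence. They are RefSeq promoters on build GRCm38.p6, from 250 bases before to 50 bases after the gene's start, 5′ to 3′ on the gene's strand, with the CHR letters TTTGAA in capitals. Positions count from the start site, which is position 0.
Hmmr, chr11:40733388-40733687, minus strand: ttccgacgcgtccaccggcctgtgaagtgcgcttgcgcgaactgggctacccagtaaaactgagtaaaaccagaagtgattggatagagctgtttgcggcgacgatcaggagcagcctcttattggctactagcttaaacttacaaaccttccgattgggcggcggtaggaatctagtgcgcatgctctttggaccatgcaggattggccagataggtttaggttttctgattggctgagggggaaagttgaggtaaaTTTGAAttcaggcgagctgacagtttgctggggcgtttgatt
Mki67, chr7:135716330-135716629, minus strand: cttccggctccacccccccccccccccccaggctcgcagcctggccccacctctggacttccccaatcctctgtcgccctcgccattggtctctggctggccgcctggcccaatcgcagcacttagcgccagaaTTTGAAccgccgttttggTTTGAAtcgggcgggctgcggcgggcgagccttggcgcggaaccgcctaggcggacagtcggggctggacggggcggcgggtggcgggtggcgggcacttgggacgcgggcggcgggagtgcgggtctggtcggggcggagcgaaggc
Cenpf, chr1:189688037-189688336, minus strand: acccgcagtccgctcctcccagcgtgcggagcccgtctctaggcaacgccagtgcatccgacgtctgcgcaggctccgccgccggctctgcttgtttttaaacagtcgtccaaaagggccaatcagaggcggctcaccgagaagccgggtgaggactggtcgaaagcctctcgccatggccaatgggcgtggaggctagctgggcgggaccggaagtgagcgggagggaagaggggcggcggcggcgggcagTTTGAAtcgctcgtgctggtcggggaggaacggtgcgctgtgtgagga
Prc1, chr7:80294201-80294500, plus strand: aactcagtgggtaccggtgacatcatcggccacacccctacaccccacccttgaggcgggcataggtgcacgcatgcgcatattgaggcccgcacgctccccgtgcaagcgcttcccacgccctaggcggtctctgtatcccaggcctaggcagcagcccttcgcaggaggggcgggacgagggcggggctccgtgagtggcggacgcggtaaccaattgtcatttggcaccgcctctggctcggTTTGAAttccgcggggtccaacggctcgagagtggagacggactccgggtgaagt
The CHR began at position 8 in Hmmr, at -116 and again at -98 in Mki67, at 2 in Cenpf and at -5 in Prc1. CCAAT on either strand occurred 5 times in the Hmmr window, 3 times in Mki67, 2 times in Cenpf and 1 time in Prc1. Of the 44 measured members, 39 had a promoter in the table. TTTGAA, sought on both strands, was in 26 of these 39 (66.7%), against 14.8% of 11847 genes of the count table with a promoter. CCAAT was in 29 of 39 (74.4%) against 42.5%, and both were in 23 (59.0%) against 6.11%. The 26 members with a CHR match had a median log2 ratio of -2.65 (-4.13 to -0.27) and the 13 without one -2.35 (-3.61 to 0.51), so the ranges overlapped widely.

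Hmmr, a hyaluronan receptor that also binds the mitotic spindle, stood at 272 CPM (231 to 318) at 6 h, 70.3 at 12 h and 6.15 (4.33 to 8.48) at 24 h. It was 44.2-fold lower at 24 h (30.7 to 65.1) by summed CPM and 43.3-fold lower with equal weight per barcode. Mki67, the proliferation marker Ki-67, measured 267, 57.3 and 7.64 CPM, 34.9-fold lower (25 to 49.6). Cenpf, a kinetochore protein, measured 220, 60.0 and 6.48 CPM, and Prc1, which bundles midzone microtubules, 151, 28.8 and 6.48 CPM. For all of these the 12 h value lay between the other two, and the counting intervals at 6 h and 24 h did not touch. The motor Cenpe (25.3-fold), the spindle factor Tpx2 (36.3-fold), the survivin gene Birc5 (23.6-fold), the motor Kif23 (16-fold) and the cleavage furrow scaffold Anln (20.4-fold) were lower as well. Topoisomerase Top2a went from 291 to 77.6 and 21.9 CPM, 13.3-fold lower (10.5 to 16.8). The cyclin Ccnb2 was 17.8-fold and the formin Diap3 9.29-fold lower.

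These transcripts came from few barcodes. Mki67 was found in 16 of the 80 deep barcodes at 6 h, and 1 of them gave 36 of its 154 counts. At 24 h it was found in 13 of 933. For Cenpf 1 barcode gave 42 of the 127 counts at 6 h, for Prc1 30 of 87 and for Hmmr 25 of 157. The counting intervals above do not cover this unevenness between barcodes. With every barcode thinned to 1000 counts, 20 of 80 barcodes at 6 h (25%) held 10 or more G2 and M phase counts, against 57 of 865 at 12 h (6.59%) and 6 of 933 at 24 h (0.643%). The median barcode held 2.00, 1.00 and 1.00 such counts, and the upper quartile was 8.50, 3.00 and 2.00. Without thinning, 19 barcodes at 6 h reached 10 per 1000. Near the limit, at 7 to 12 counts, lay 9 barcodes at 6 h and 2 at 24 h. The libraries thus differed in a minority of barcodes rich in these genes more than in the typical barcode. The highest barcodes reached similar loads, 34 counts at 6 h and 35 at 24 h.

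**Figure D2:**
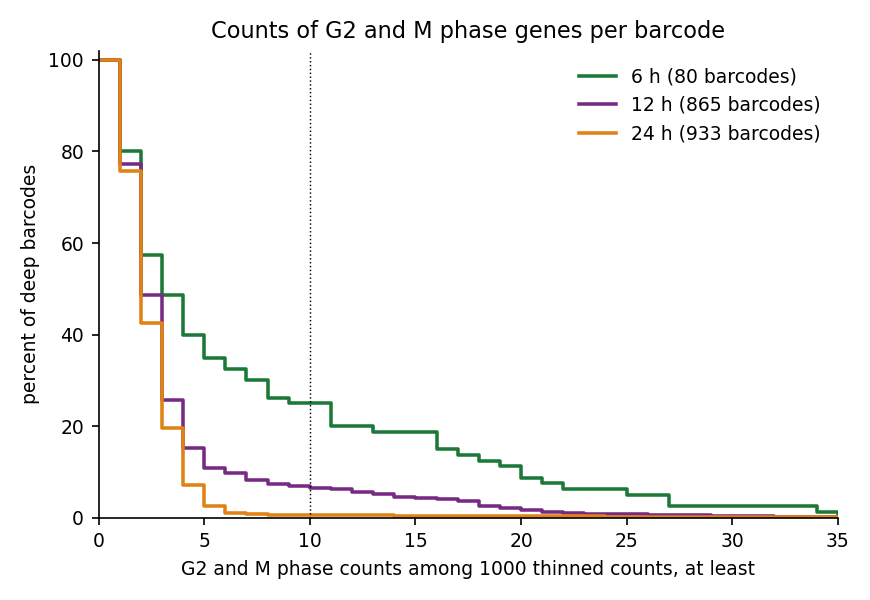
Percent of deep barcodes (y axis) with at least the given number of G2 and M phase counts among 1000 thinned counts (x axis), for the 6 h (80 barcodes), 12 h (865) and 24 h (933) libraries. At the dotted line of 10 counts the curves stand at 25%, 6.59% and 0.643%.

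Genes of DNA replication followed in smaller measure. Of 31 listed for S phase, 18 were measured, 13 were lower by 1.5-fold, 0 were higher, and the median was -1.09. The ribonucleotide reductase subunits Rrm2 (65.8, 28.4 and 7.64 CPM at 6, 12 and 24 h) and Rrm1 (130, 49.8 and 25.3 CPM) were 8.61-fold (5.45 to 13.5) and 5.14-fold lower (3.85 to 6.82). The helicase subunit Mcm3 was 7.82-fold, the ligase Lig1 5.08-fold and the polymerase clamp Pcna 2.32-fold lower. Dut, Rfc2, Mcm7, Tipin and Tyms were inside the limit. The E2F letters TTTNGCGC, with N any base and both strands searched, were in 5 of 13 member promoters (38.5%) against 2.56% of all.

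Genes of growth arrest and the p53 response were mostly higher or level. Of 25 listed, 19 were measured, 10 were higher and 0 lower, with a median of 0.62. Gadd45a, a DNA damage and stress gene, differed most: 43.3 CPM at 6 h, 293 at 12 h and 216 at 24 h, 4.98-fold higher at 24 h than at 6 h (3.36 to 7.73). Cdkn2b, which encodes the cyclin-dependent kinase inhibitor p15 and is a classical TGF-β target, measured 118, 240 and 355 CPM, 3.01-fold higher (2.37 to 3.90). The kinase Plk2 (120 and 282 CPM) and the RNA-binding protein Zmat3 (52.0 and 113 CPM) were also higher. Cdkn1a, which encodes p21, measured 556, 805 and 654 CPM and was inside the limit. The list's median was under 1.5-fold in 24 h barcodes matched to 6 h in depth (0.23) and in several other settings.

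**Figure D3:**
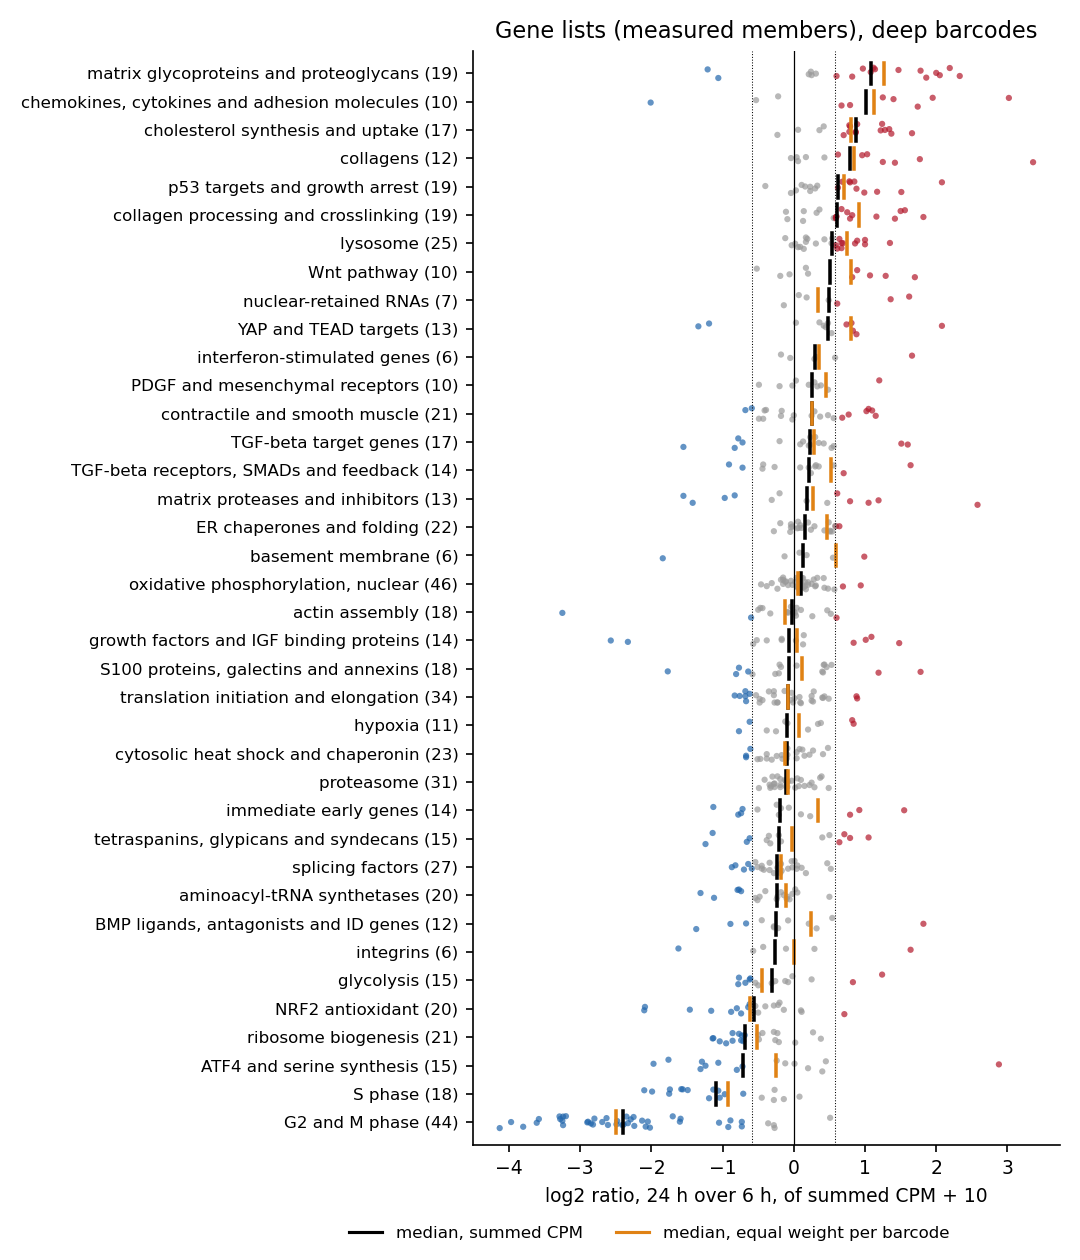
Log2 ratio of summed CPM plus 10, 24 h over 6 h (x axis), for the measured members (points) of each gene list with 5 or more measured members (rows, number measured in brackets). Red and blue points are at least 1.5-fold higher and lower (dotted lines); black and orange bars are list medians by summed CPM and with equal weight per barcode. The G2 and M phase list stands furthest below 0 and the matrix glycoprotein list furthest above.

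The matrix genes were higher at 24 h. Of 22 collagen genes, 12 were measured, 7 were higher and 0 lower, with a median of 0.79 by summed CPM and 0.84 with equal weight. All 22 collagen genes together, low ones included, summed to 2420 CPM at 6 h, 4745 at 12 h and 5976 at 24 h. Col3a1, a fibrillar collagen of loose and scar tissue (chr1:45311538-45349706, GRCm38 in GENCODE, as for the positions below), differed most. It measured 32.9 CPM (19.8 to 51.4, 19 counts) at 6 h, 172 at 12 h and 430 (414 to 447) at 24 h, 13.1-fold higher (8.35 to 21.7). With equal weight it was 22.1-fold higher. After thinning to 1000 counts, 1.25% of barcodes at 6 h (0.0316% to 6.77%) and 32.9% at 24 h (29.9% to 36.0%) held a Col3a1 count, against 17.5% and 73.1% unthinned. No group of barcodes known to lack the gene was set apart, so the share that free RNA in the droplets would give was not measured. Col1a2 measured 1230, 2677 and 3296 CPM, 2.68-fold higher (2.49 to 2.89), and Col1a1, its partner chain in type I collagen, 223, 463 and 445 CPM, 1.99-fold (1.67 to 2.40). Col8a1 (34.6 and 143 CPM) and Col5a2 (414 and 997 CPM) were higher too, whereas the basement membrane chains Col4a1 and Col4a2 lay inside the limit (116 and 121 CPM, 74.5 and 85.3 CPM).

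Matrix glycoproteins and proteoglycans gave the highest list median. Of 33 listed, 19 were measured, 13 were higher and 2 lower, with a median of 1.08 (equal weight 1.26). Fibronectin, Fn1, which bridges integrins and collagen (chr1:71585520-71653200), stood at 927 CPM (850 to 1009) at 6 h, 2867 at 12 h and 3394 (3348 to 3441) at 24 h, 3.66-fold higher (3.36 to 4.00). Fstl1, a secreted follistatin-like protein, measured 388, 1308 and 1802 CPM, 4.64-fold higher (4.07 to 5.32). The latent TGF-β binding proteins Ltbp2 (19.1, 120 and 110 CPM) and Ltbp3 (38.1, 182 and 183 CPM), which belong to the fibrillin family, were 5.78-fold (3.21 to 11.6) and 4.80-fold (3.15 to 7.69) higher, while Ltbp1 was inside the limit (168 and 210 CPM). The osteopontin gene Spp1 had 2 counts at 6 h and 57.5 CPM at 24 h, where 90 of 933 barcodes held it. The 2 lower members were Tnc, which encodes tenascin C (57.2 and 18.9 CPM), and the microfibril protein Mfap5 (32.9 and 10.6 CPM), which was inside the limit with equal weight at a log2 ratio of -0.50. Postn, the periostin gene, had 0 counts at 6 h and 4 at 24 h, or 0.665 CPM, which gives no direction, since 0 counts at 6 h allow up to 5.20 CPM.

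The enzymes that modify and cross-link collagen were higher as a group. Of 22 listed, 19 were measured, 12 were higher and 0 lower, with a median of 0.60 by summed CPM, close to the 0.58 that 1.5-fold equals, and 17 were higher with equal weight (median 0.91). Equal weight also raised the share of all 6293 genes measured that were higher, from 12.2% to 20.4%, and 11.1% were lower. These shares belong beside the equal-weight counts of the lists below as well. Bmp1, the protease that trims procollagen, measured 50.2, 208 and 202 CPM, 4.03-fold higher (2.79 to 6.04). The lysyl oxidases Loxl2 (241, 565 and 727 CPM) and Loxl1 (39.8, 110 and 131 CPM) were 3.02-fold (2.55 to 3.60) and 3.28-fold (2.17 to 5.20) higher, and Pcolce, which enhances that trimming, was 3.07-fold (2.05 to 4.83). P4ha2 and Crtap lay near their 6 h levels (100 and 93.9 CPM, 95.3 and 106 CPM).

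The matrix difference was largest among shallow barcodes. In barcodes with 1000 to under 2000 counts, collagens measured 884 CPM at 6 h (30 barcodes) and 6280 at 24 h (111 barcodes), a log2 ratio of 2.83. In barcodes with 8000 or more counts they measured 2558 (25 barcodes) and 5973 CPM (273 barcodes), a log2 ratio of 1.22. Matrix glycoproteins gave 2.31 and 1.00 in the same strata, collagen processing 2.14 and 0.82, and lysosomal genes 1.44 and 0.79. The G2 and M phase difference moved less, from -2.40 to -1.94. The collagen level at 24 h hardly moved between strata, and Malat1 was absent from 15 of the 30 shallow 6 h barcodes and from 0 of the 25 deepest. The part these barcodes play was not tested. The shallow 6 h barcodes held 40713 of the 577352 deep counts at 6 h, and without the barcodes that lack Malat1 the collagen median was 0.73, the matrix glycoprotein median 1.04 and the collagen processing median 0.54, the last inside the 1.5-fold limit.

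**Figure D4:**
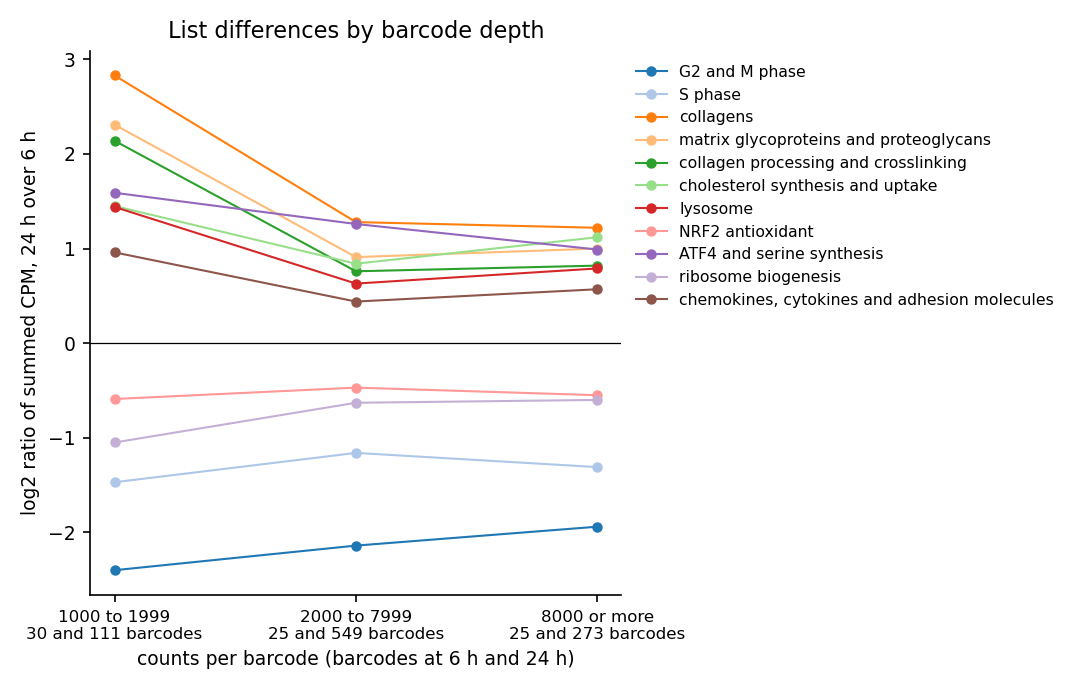
Log2 ratio of list sums in CPM, 24 h over 6 h (y axis), in barcodes of 1000 to under 2000, 2000 to under 8000 and 8000 or more counts (x axis), for 11 gene lists. The matrix lists lie highest in the shallowest barcodes, where collagens stand at 2.83, and the G2 and M phase list stays between -2.40 and -1.94.

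Basement membrane genes differed member by member. Of 6 measured, Hspg2, which encodes perlecan, was higher (45.0 and 99.2 CPM) and Nid1, the nidogen that links laminin to collagen IV, was lower. Nid1 measured 681, 398 and 182 CPM, 3.73-fold lower (3.32 to 4.19), so the list's sum was lower at 24 h (1242 and 842 CPM) while its median was 0.13. With equal weight 3 of the 6 were higher, the others being the laminin chains Lamb1 and Lamb2, and the median was 0.59. By that weighting 20.4% of all genes measured were higher. Matrix proteases and their inhibitors were split as well, with 5 of 13 higher, 4 lower and a median of 0.18. Timp3, a metalloprotease inhibitor held in the matrix, measured 2091, 5921 and 4790 CPM, 2.29-fold higher (2.16 to 2.43), and the aggrecanase Adamts5 went from 6 counts (10.4 CPM) to 112 CPM. The inhibitor Timp1 (1474, 1058 and 827 CPM) and the urokinase receptor Plaur (38.1, 15.1 and 7.98 CPM) were lower. Mmp2, the gelatinase gene, was 2.15-fold higher (1.73 to 2.70).

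Contractile genes did not move together. Of 30 listed, 21 were measured, 6 were higher, 2 lower and the median was 0.25. Acta2, smooth muscle actin and the usual myofibroblast marker (chr19:34241090-34255590), stood at 658 CPM (594 to 728) at 6 h, 112 (103 to 121) at 12 h and 407 (391 to 424) at 24 h, 1.62-fold lower at 24 h than at 6 h (1.45 to 1.80). One barcode gave 81 of its 380 counts at 6 h, and with the top barcode of each library left out for this gene the log2 ratio was -0.37 in place of -0.68. Thinned to 1000 counts, 33.8% of barcodes at 6 h (23.6% to 45.2%) and 24.3% at 24 h (21.6% to 27.2%) held an Acta2 count, against 58.8% and 48.7% unthinned. The 12 h value lay below both ends, and some unrelated genes shared that shape, for example the translocon subunit Sec61g (381, 26.2 and 439 CPM) and the ATP synthase subunit Atp5l (350, 32.5 and 396 CPM), both picked after their values were seen. Whether one source lies behind the 12 h values was not tested. Tagln, another smooth muscle gene, had 6 counts at 6 h (10.4 CPM) and 9.97 CPM at 24 h. The focal adhesion and stress fibre genes Zyx (98.7 and 231 CPM), Actn1 (298 and 651), Cnn2 (372 and 780) and Pdlim7 (52.0 and 116) were each about 2-fold higher, with log2 ratios from 1.02 to 1.15. Tropomyosin Tpm1 measured 1564, 1615 and 2503 CPM with a log2 ratio of 0.68, or 0.49 and inside the limit with equal weight. The letters CATTCC of the MCAT element, on either strand, were in 10 of 21 member promoters (47.6%) against 15.0% of all.

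Of 18 measured genes of actin assembly, 1 was higher, 2 were lower and the median was -0.02. The lower ones were the cytokinesis gene Anln and the actin-severing protein gene Cfl1, at a log2 ratio of -0.60, and Actg1, cytoplasmic γ-actin, stood at 0.60, just past the limit, and at 0.00 with equal weight. Among 6 measured integrins, Itgb5, which pairs with αv, was higher (113, 380 and 373 CPM, 3.31-fold, 2.59 to 4.30), and the laminin receptor chain Itga6 was lower (43.3, 12.9 and 7.31 CPM, 5.92-fold, 3.47 to 9.89). Itgb1, the shared β1 chain, measured 2068, 1693 and 1392 CPM and stayed inside the limit at a log2 ratio of -0.57. A pair of genes outside the lists stood out. Piezo2, a stretch-gated cation channel, had the highest log2 ratio by summed CPM plus 10, at 3.43, next to Col3a1 at 3.36. Col3a1 was above it with equal weight. Piezo2 measured 36.4 CPM (21 counts in 13 barcodes), 345 and 489 CPM, 13.5-fold higher (8.79 to 21.8). Xirp2, an actin-binding protein of striated muscle, went from 163 CPM in 24 barcodes to 8.27 and 1.83 CPM, 89.1-fold lower (47.6 to 185).

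The TGF-β pathway itself showed no common direction between these times. Of 14 measured receptors, SMADs and feedback genes, 2 were higher and 2 lower, with a median of 0.22. Lrrc32, which holds latent TGF-β at the cell surface, measured 24.2, 89.1 and 96.6 CPM, 3.98-fold higher (2.35 to 7.33), and the receptor Tgfbr2 24.2, 26.1 and 45.5 CPM. Smad2 (55.4, 32.0 and 24.9 CPM) and the inhibitory Smad7 (88.3, 88.8 and 49.7 CPM) were lower, though Smad7 was inside the limit with equal weight, at a log2 ratio of -0.47. Of 17 measured target genes, 2 were higher, 4 lower and the median was 0.23. The lower ones included Ier3, an immediate early stress gene (272, 209 and 154 CPM), with a log2 ratio of -0.78 by summed CPM and of -0.52, inside the limit, with equal weight. Ctgf, an early target, stayed inside the limit at 447, 704 and 603 CPM, 1.35-fold higher (1.19 to 1.54). Nox4, an oxidase that makes hydrogen peroxide, was the higher target beside Cdkn2b (19.1, 63.8 and 77.8 CPM, 4.08-fold, 2.26 to 8.23).

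**Figure D5:**
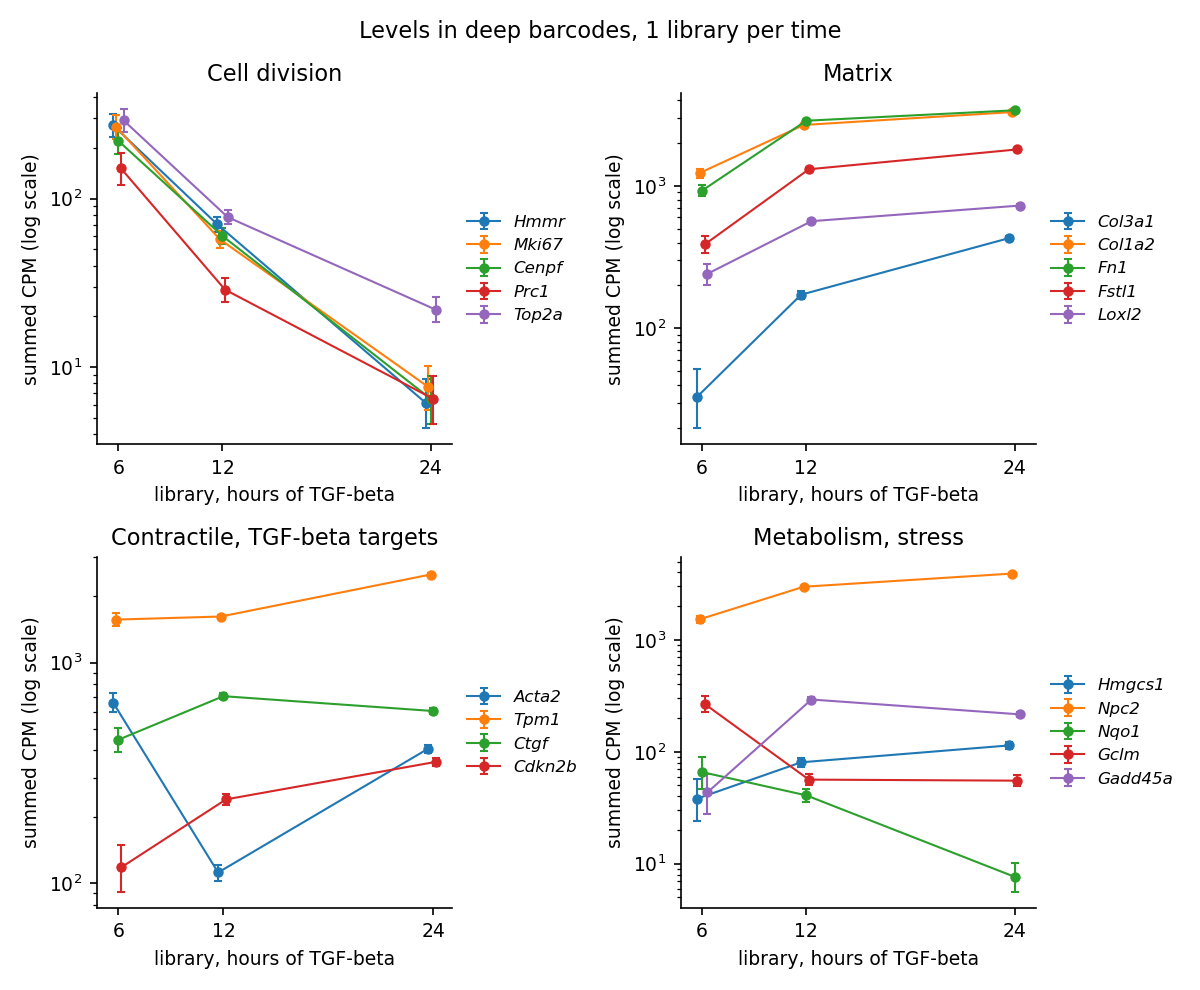
Summed CPM of deep barcodes (y axes, log scale) in the 6, 12 and 24 h libraries (x axes) for 19 genes in 4 groups, with exact Poisson 95% intervals, 1 library per time. Lines join the points of a gene. Division genes are lower at each later time, matrix genes are lowest at 6 h, and Acta2 is lowest at 12 h.

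Neighbouring signalling lists also held opposite members. Of 12 measured BMP, antagonist and ID genes, 1 was higher and 3 lower, among them the ligand Bmp2 (53.7, 46.7 and 14.6 CPM) and the antagonist Grem1 (52.0, 23.2 and 23.4 CPM, at -0.49 and inside the limit with equal weight), and the higher one was Bmp1, which despite its name is the procollagen protease. The median was -0.25 by summed CPM and 0.24 with equal weight, so its sign turned with the weighting. Of 13 YAP and TEAD targets, which report tension on the cytoskeleton, 5 were higher and 2 lower. The median was 0.48, and 0.80 with equal weight. The kinase Lats2 (27.7 and 59.5 CPM) was higher and the scaffold Wwc1 (113 and 38.6 CPM) lower. Of 14 immediate early genes, 3 were higher, led by Klf4 (43.3, 121 and 146 CPM), and 4 lower, led by Fosl1 (60.6, 34.3 and 22.3 CPM). That median was -0.20 by summed CPM and 0.34 with equal weight. Among 10 genes of the Wnt list, 5 were higher and 0 lower, with a median of 0.51. The higher ones include Tcf4 (log2 ratio 1.07), which is not the gene of the Wnt factor TCF-4. That factor is encoded by Tcf7l2, also on the list, so the count and median rest partly on a gene outside the pathway. Wisp1, a secreted matricellular protein, measured 46.8, 184 and 174 CPM, the receptor Fzd2 79.7, 177 and 209 CPM, and Sfrp1, a secreted Wnt antagonist, 26.0, 63.4 and 56.5 CPM. Of 10 receptors for PDGF and other mesenchymal ligands, Pdgfrb alone was higher by summed CPM (8 counts, 13.9 CPM, and 44.7 CPM), and 4 were with equal weight, among them Fgfr1 and Ddr1. The equal-weight share over all genes measured was 20.4%. Pdgfra was inside the limit, with a log2 ratio of -0.49 by summed CPM (31.2 and 19.3 CPM) and 0.28 with equal weight.

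Chemokines and adhesion molecules were mostly higher. Of 24 listed, 10 were measured, 7 were higher and 1 lower, with a median of 1.02. The monocyte chemokines Ccl7 (13.9, 155 and 184 CPM) and Ccl2 (45.0, 136 and 174 CPM) were 13.3-fold (6.70 to 30.8) and 3.86-fold (2.62 to 5.94) higher. Vcam1, which leukocytes bind, measured 67.5, 263 and 289 CPM, 4.28-fold higher (3.12 to 6.04). Cxcl12 measured 755, 1077 and 1309 CPM, and Il6 15.6 CPM (9 counts), 55.9 and 57.7 CPM. Ccl5 was the lower member, but its 29 counts at 6 h came from 3 barcodes, 17 of them from 1. Counting every member with a count, low ones included, the list's median was 0.06. Among 14 growth factors and IGF binding proteins, Igfbp3 (98.7 and 293 CPM), Igf1 (140 and 311 CPM), Pdgfc (19.1 and 48.4 CPM) and Bdnf (379 and 689 CPM) were higher and 2 were lower. The lower ones were Prl2c2, a proliferin of the prolactin family (3100, 1437 and 514 CPM, 6.03-fold, 5.69 to 6.40), and Prl2c3 (74.5, 16.4 and 6.81 CPM). These have near-identical copies, so how reads were divided among them is uncertain.

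Genes of cholesterol synthesis and uptake were higher at 24 h. Of 25 listed, 17 were measured, 13 were higher and 0 lower, with a median of 0.87. The 24 members present in the count table, low ones included, summed to 561, 825 and 1172 CPM. Hmgcs1, which makes the precursor of mevalonate, measured 38.1, 80.5 and 114 CPM, 3.00-fold higher (1.97 to 4.82), and the farnesyl diphosphate synthase Fdps 36.4, 52.1 and 103 CPM, 2.82-fold (1.83 to 4.59). Lysosomal genes had 11 of 25 measured members higher and 0 lower, with a median of 0.54 (equal weight 0.75). Npc2, which carries cholesterol out of the lysosome, measured 1524, 2981 and 3910 CPM, 2.57-fold higher (2.40 to 2.75), and the membrane protein Laptm4a 322, 636 and 604 CPM.

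Some antioxidant and serine synthesis genes were lower. Of 20 measured NRF2 genes, 9 were lower and 1, the peroxidase gene Prdx6 (293 and 487 CPM), higher, with a median of -0.56, just inside the limit. Prdx6 was inside it with equal weight, at a log2 ratio of 0.35. The quinone reductase Nqo1 measured 65.8, 40.8 and 7.64 CPM, 8.61-fold lower (5.45 to 13.5). Gclm, a subunit of the enzyme that starts glutathione synthesis, measured 267, 56.4 and 55.2 CPM, 4.83-fold lower (3.97 to 5.87), and 1 barcode gave 34 of its 154 counts at 6 h. The thioredoxin reductase Txnrd1 measured 707, 371 and 251 CPM. The antioxidant element letters TGACNNNGC were in 7 of 16 member promoters (43.8%) against 16.6% of all. Other motif searches each matched few promoters: TGATGNAA of ATF4 2 of 14 of its list (14.3%, against 2.93% of all), TCACNCCAC of SREBP 1 of 10 cholesterol genes (10%, against 1.49%), CAGACA of SMAD 4 of 9 TGF-β targets (44.4%, against 19.5%) and the NF-κB motif 2 of 5 chemokine list genes (40%, against 0.490%). TGANTCA of AP-1 was in 0 of 10 immediate early gene promoters, against 7.05% of all. In the ATF4 list, 8 of 15 measured genes were lower, with a median of -0.72. With equal weight 7 were lower and 3 higher, with a median of -0.25, and over every member with a count the summed median was -0.08. They included the serine pathway enzymes Psat1 (76.2, 28.4 and 12.0 CPM), Psph (125, 31.4 and 29.7 CPM) and Phgdh (114, 39.0 and 40.7 CPM) and the asparagine synthetase Asns (104, 49.6 and 36.1 CPM). The one higher member, the stress-induced nuclear protein Nupr1, outweighed them in the sum (1334 and 2836 CPM). Nupr1 stood at 286 CPM at 6 h, 1338 at 12 h and 2174 at 24 h, 7.61-fold higher (6.52 to 8.92).

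Of 21 ribosome biogenesis genes, 11 were lower and 0 higher, with a median of -0.69. With equal weight 8 were lower, with a median of -0.52, and with 24 h barcodes matched to 6 h in depth the median was -0.44, both inside the limit. Nucleolin, Ncl, measured 3817, 2602 and 2093 CPM, 1.82-fold lower (1.74 to 1.91), and the nucleolar helicase Ddx21 759, 453 and 341 CPM. Among 20 tRNA synthetases, 5 were lower, led by Nars (767, 320 and 304 CPM), and 0 higher. The proteasome stayed level, with 0 of 31 subunits past the limit in either direction and a median of -0.11. Nuclear-encoded respiratory chain genes were nearly level as well (2 of 46 higher, 0 lower, median 0.10), as were cytosolic chaperones (0 of 23 higher, 3 lower, -0.10). Of 22 ER chaperones and folding genes, 2 were higher by summed CPM (median 0.16) and 8 with equal weight (median 0.46), and 0 were lower by either. Beside these counts, 12.2% of all 6293 genes measured were higher and 10.4% lower by summed CPM. With equal weight the shares were 20.4% and 11.1%. In glycolysis 5 of 15 were lower and 2 higher, among them Ldhb (52.0 and 136 CPM). Splicing factors had 5 of 27 lower and 0 higher, translation factors 6 of 34 lower and 2 higher, and hypoxia genes 2 of 11 each way. Of 6 interferon-stimulated genes, Ifi27 was higher (9 counts, 15.6 CPM, and 71.0 CPM). Among nuclear RNAs, Meg3 (452, 1366 and 1409 CPM) and Neat1 (163, 479 and 435 CPM) were higher. Malat1 was level when summed (10927 and 12340 CPM) but not in the typical barcode. Its median over barcodes was 3871 CPM at 6 h and 10846 CPM at 24 h, and 1 barcode gave 1169 of its 6309 counts at 6 h. Of 18 S100, galectin and annexin genes, 2 were higher, the annexins Anxa5 (598 and 1372 CPM) and Anxa8 (45.0 and 180 CPM), and 4 lower, including the galectin Lgals3 (227, 68.8 and 59.5 CPM) and the calcium-binding S100a6 (7120, 5514 and 4070 CPM). Of 15 measured genes on the list of tetraspanins, glypicans and syndecans, 4 were higher and 4 lower. That list also holds Cd44, Has1, Has2 and Cspg4, which belong to none of these families. Among the lower ones were the hyaluronan receptor Cd44 (355 and 144 CPM) and the hyaluronan synthase Has2 (100 and 40.2 CPM).

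Further genes of high rank belonged to no list. The protease Prss23 measured 88.3, 403 and 760 CPM, 8.61-fold higher (6.54 to 11.6). Medag, an adipocyte differentiation gene, had 4 counts at 6 h (6.93 CPM) and stood at 63.8 and 132 CPM later, a ratio of 19.0 whose interval ran from 7.41 to 70.1. With equal weight its ratio was 47.9. The xylulose reductase Dcxr (26.0 and 121 CPM) and the copine Cpne8 (19.1 and 103 CPM) were also higher.

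Equal weight per barcode, the mean of each barcode's own CPM, keeps a few barcodes rich in total counts from setting a level. It does not guard against a barcode in which a single gene is very high. By this measure 2180 genes reached 100 CPM, 140 were called higher (6.42%) and 105 lower (4.82%). Of the genes called by summed CPM, 85 of 103 higher and 68 of 89 lower ones were also 2-fold apart with equal weight, and 0 changed direction. Over the 6293 measured genes the median log2 ratio was 0.08 with equal weight against 0.01, and 20.4% were higher by 1.5-fold. That shift favoured 24 h. Without the barcodes that lack Malat1, the equal-weight 2-fold calls at 100 CPM were 113 higher and 101 lower, in place of 140 and 105. The median and the 1.5-fold share were not worked out without those barcodes. Equal weight moved matrix genes both ways, with higher list medians: Fn1 was 4.86-fold higher in place of 3.66-fold, and Igfbp7 2.41-fold (1790 and 4307 CPM) in place of 1.96-fold, whereas Ltbp2 was 4.44-fold in place of 5.78-fold, Pcolce 2.78-fold in place of 3.07-fold and Timp3 2.17-fold in place of 2.29-fold. After thinning to 1000 counts, 38.8% of barcodes at 6 h and 93.6% at 24 h held an Fn1 count, against 65.0% and 99.7% unthinned. Among other leading genes, Nupr1 was 7.59-fold higher with equal weight and Prss23 8.69-fold, near their summed ratios, and Piezo2 was 17.5-fold. Mki67 averaged 181 CPM per barcode at 6 h and 6.70 at 24 h. Equal weight enlarged the value of Oip5, a centromere protein gene, to 7583 CPM at 6 h against 1557 CPM summed. Its 1557 CPM at 6 h rested on 895 of 899 counts in 1 barcode of 1476 counts, where it made up 60.6%, and at 24 h it had 3 counts. Among lower calls, 7 genes took over 25% of their 6 h counts from 1 barcode, and Oip5 was the only called gene above 50%. Reads on the opposite strand could add to several named genes, since no source used here says whether counting was strand-specific. Exons of Fn1, Vcam1, Ltbp2, Ltbp3, Prss23, Timp3, Gadd45a, Nid1, Psph, Gclm, Prc1, Xirp2 and Oip5 overlap a gene on the other strand. Medag, Fdps, Pcolce and Lats2 have exons that overlap another gene on the same strand, which a strand setting would not separate.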

How the data were processed

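Drop-seq libraries of Gli1-positive mouse kidney cells, 1 per time, were analysed from 1 deposited table of raw counts for 17391 genes, which the authors made without normalization, as its whole-number values show. The submitters' processing notes name STAR 2.5.3a and the build mm10. No source used here states the counting tool, its annotation and strand setting, or whether molecular identifiers were collapsed.

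Samples were taken from the column names. Barcodes with 1000 or more counts were kept, their counts summed and scaled to CPM, and genes compared by the log2 ratio of CPM plus a pseudocount of 10. CPM have exact Poisson, ratios exact conditional binomial and shares exact binomial (Clopper-Pearson) 95% intervals. With 1 library per time there was no test. Doublets were kept: Scrublet (scanpy 1.11.5) called 3 and 2 deep barcodes at 6 h and 24 h. The 39 gene lists, the 11 marker lists and the comparison were chosen with earlier results of these data known. Named genes were the 15 highest and 15 lowest at 100 CPM past 2-fold by both weightings (no mitochondrial, ribosomal or predicted genes), up to 4 members per list by size of ratio, and 14 fixed genes. Of the fixed genes, Gli1 has no value because it was not among the genes of the count table. Other list members are given as examples chosen after their values were seen. The complement list, with 3 measured members (Cd55, Cd59a and C1s, 0 lower and 2 higher), is not described further. Alternatives covered scaling (edgeR 4.0.16 TMM, DESeq2 1.42.0 size factors), weighting, pseudocount, floors, folds, barcode depth, merging and removal. Barcode merging, strata and removal of barcodes without Malat1 or with 1 gene over 20% of counts were added after seeing the data. The method was tested on simulated data, which varied by counting error alone and held no barcodes. That test cannot show how calls and intervals behave where a few barcodes hold many of the counts, as at 6 h.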

Additional observations from a re-analysis of the deposited data

Results flagged for a closer look

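One signal lay outside the comparison. In the 13 deep barcodes of the library labelled 0 h, proximal tubule markers made up 233 of 16402 counts, or 14206 CPM (exact Poisson 95% interval 12440 to 16152), against 3.46 CPM at 6 h and 2.99 CPM at 24 h. The mesenchymal markers had 3 counts there. No barcode of that library entered the comparison of 24 h with 6 h.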

How the results depend on the processing

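No paired analysis was possible because each time has 1 library. Scaling left the counts of called genes near 103 higher and 89 lower (TMM 111 and 83, DESeq2 110 and 84). Counts moved with the limits themselves: 54 and 55 with a pseudocount of 50 CPM, 179 and 165 at a floor of 50 CPM, 51 and 49 at 200 CPM, 324 and 294 with no floor, 278 and 274 at 1.5-fold, 31 and 37 at 3-fold. Equal weight in merged barcodes gave 157 higher, and equal weight gave 223 higher at 500 counts per barcode. Without each gene's top barcode, 134 were higher and 63 lower (68.0% higher, against 53.6%), which by construction lowers the thinner library more. No median of a called list changed sign. With a pseudocount of 50 CPM the medians were 0.53 for collagens, 0.41 for collagen processing, -0.58 for S phase, 0.29 for p53, -0.34 for ATF4, 0.41 for cholesterol and -0.51 for ribosome biogenesis, and with 1 CPM -0.63 for NRF2 and 0.61 for lysosome. With every member that has a count they were 0.43 for collagens, 0.06 for chemokines, 0.42 for p53 and -0.08 for ATF4, where low genes enter. Equal weight gave 0.59 for basement membrane, 0.80 for YAP targets, 0.80 for Wnt, -0.61 for NRF2, -0.25 for ATF4, 0.75 for lysosome and -0.52 for ribosome biogenesis. In merged barcodes equal weight gave 0.73, 0.84, 0.84, -0.34 for ATF4, 0.69 for lysosome and -0.57 for ribosome biogenesis. Without each gene's top barcode the values were 0.69 for YAP, 0.64 for Wnt, -0.50 for ATF4, 0.64 for lysosome, -0.58 for ribosome biogenesis and 0.59 for nuclear RNAs. All deposited barcodes gave 0.59 for YAP, 0.44 for p53, 0.63 for lysosome and 0.61 for nuclear RNAs. Barcodes with 2000 or more counts gave 0.57 for collagen processing, 0.55 for p53 and -0.59 for NRF2, and those with 500 or more gave 0.48 for p53. 24 h barcodes matched in depth gave 0.67 for YAP, 0.23 for p53 and -0.44 for ribosome biogenesis. Without barcodes lacking Malat1, collagen processing was 0.54 and p53 0.57. A mean of 50 CPM gave 0.94 for Wnt and 0.56 for p53, leaving out the largest 5% of barcodes gave 0.60 for Wnt, and leaving out barcodes with 1 gene over 20% gave 0.60 for nuclear RNAs. The cause of these moves was not tested. Of 3114 alternative values of single named genes, 179 moved beyond their counting interval. The depth at 6 h limits genes under about 5.20 CPM.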
